A study of Mus musculus with 2 samples.

Results

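The genes described here are 41 endothelial and angiogenic genes, chosen by name as genes of blood and lymphatic vessels, out of 43346 genes quantified in mouse stomach at embryonic day 16.5. They comprise receptors, ligands, junction and surface proteins, secreted proteins, intracellular proteins, transcription factors and lymphatic surface proteins. The rule that names them uses no measured value, although they were chosen with earlier results of these data known. Total RNA was sequenced from 2 biological replicates. Both were pooled stomachs of healthy male and female embryos of strain B6NCrl, with no engineered allele or treatment in the labels. The labels count 41 embryos in replicate 2, give no such count for replicate 1 and carry the same donor identifier for both, so the spread between them covers pools of embryos and their preparation rather than single animals. Both libraries form 1 group with no treatment, genotype or time contrast, so no test was possible and each side of a comparison between pools is 1 library.

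Endothelial cells line every vessel and read signals that control growth, sprouting and barrier function. VEGF ligands act on the receptor tyrosine kinases encoded by Flt1, Kdr and Flt4, angiopoietins act on the Tie receptors, and apelin, adrenomedullin and sphingosine-1-phosphate act on G-protein-coupled receptors. Factors of the ETS and SOXF families maintain endothelial identity, while Prox1 specifies lymphatic endothelium.

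The authors' transcript estimates separate alternative coding forms of several of these genes, and the sequences that tell 4 such pairs apart are shown first. The shares reported below come from the authors' estimates over whole transcript models. Reads across the points where the pairs part were not counted here. Each line gives coding sequence on the transcript strand, 5′ to 3′, from GENCODE M21 (GRCm38): 24 bases shared by the pair in lower case, followed by the first 15 bases that differ in capitals. The Vegfa pair parts after chromosome 17 position 46024065 (minus strand), at the end of exon 5.
Vegfa-201: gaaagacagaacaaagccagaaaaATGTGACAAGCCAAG
Vegfa-202: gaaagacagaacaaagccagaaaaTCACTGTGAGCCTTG
In Vegfa-201 exon 5 is joined to exon 8, and in Vegfa-202 to the 132-base exon 7, which encodes much of the domain that binds heparan sulphate and neuropilin. The Flt1 pair parts after exon 13, where Flt1-202 is spliced to the next exon and Flt1-203 runs on into intron sequence, the known design of the soluble VEGF trap that lacks the membrane anchor and kinase.
Flt1-202: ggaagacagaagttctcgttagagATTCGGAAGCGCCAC
Flt1-203: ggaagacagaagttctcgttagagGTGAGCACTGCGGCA
The Pecam1 pair differs by a 57-base exon in the region coding for the cytoplasmic tail, present in Pecam1-202 (chromosome 11, 106671742 to 106671798) and skipped in Pecam1-203.
Pecam1-202: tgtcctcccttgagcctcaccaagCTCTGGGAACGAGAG
Pecam1-203: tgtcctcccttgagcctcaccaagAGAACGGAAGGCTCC
The Cd34 pair also parts in the cytoplasmic tail, and Cd34-202 reaches its stop codon within the bases shown.
Cd34-201: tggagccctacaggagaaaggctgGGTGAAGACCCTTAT
Cd34-202: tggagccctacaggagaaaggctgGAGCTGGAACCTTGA

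The set was expressed as a whole at intermediate levels. All 41 genes reached 1 TPM (a gene's length-corrected share of all transcripts) in both libraries, where 35.5% of all annotated genes and 64.3% of protein-coding genes did so. Of the 41, 22 reached 10 TPM in both libraries, against 20.9% of all annotated genes. In both libraries, 6 of those 22 reached 50 TPM, and 10 of the 41 stayed below 5 TPM. The shares of all genes that reached 50 TPM or stayed below 5 TPM were not computed. The median gene of the set stood at 13.59 ± 0.325 TPM (mean ± SD, n = 2 libraries, as for every ± on TPM below), beside the 15.29 ± 0.424 of the 15372 detected genes. Levels ran from 1.28 TPM for Prox1 in replicate 2 to 101.07 TPM for Egfl7 in the same library. Summed, the 41 genes took 952.94 TPM in replicate 1 and 1003.14 TPM in replicate 2, or 0.0953% and 0.1003% of all TPM. That total includes the spike-ins, and all annotated genes summed to 932989 and 954658 TPM. In bulk tissue, fewer endothelial cells and less RNA per cell cannot be told apart, and a level does not measure the share of vessels in the organ.

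**Figure D1:**
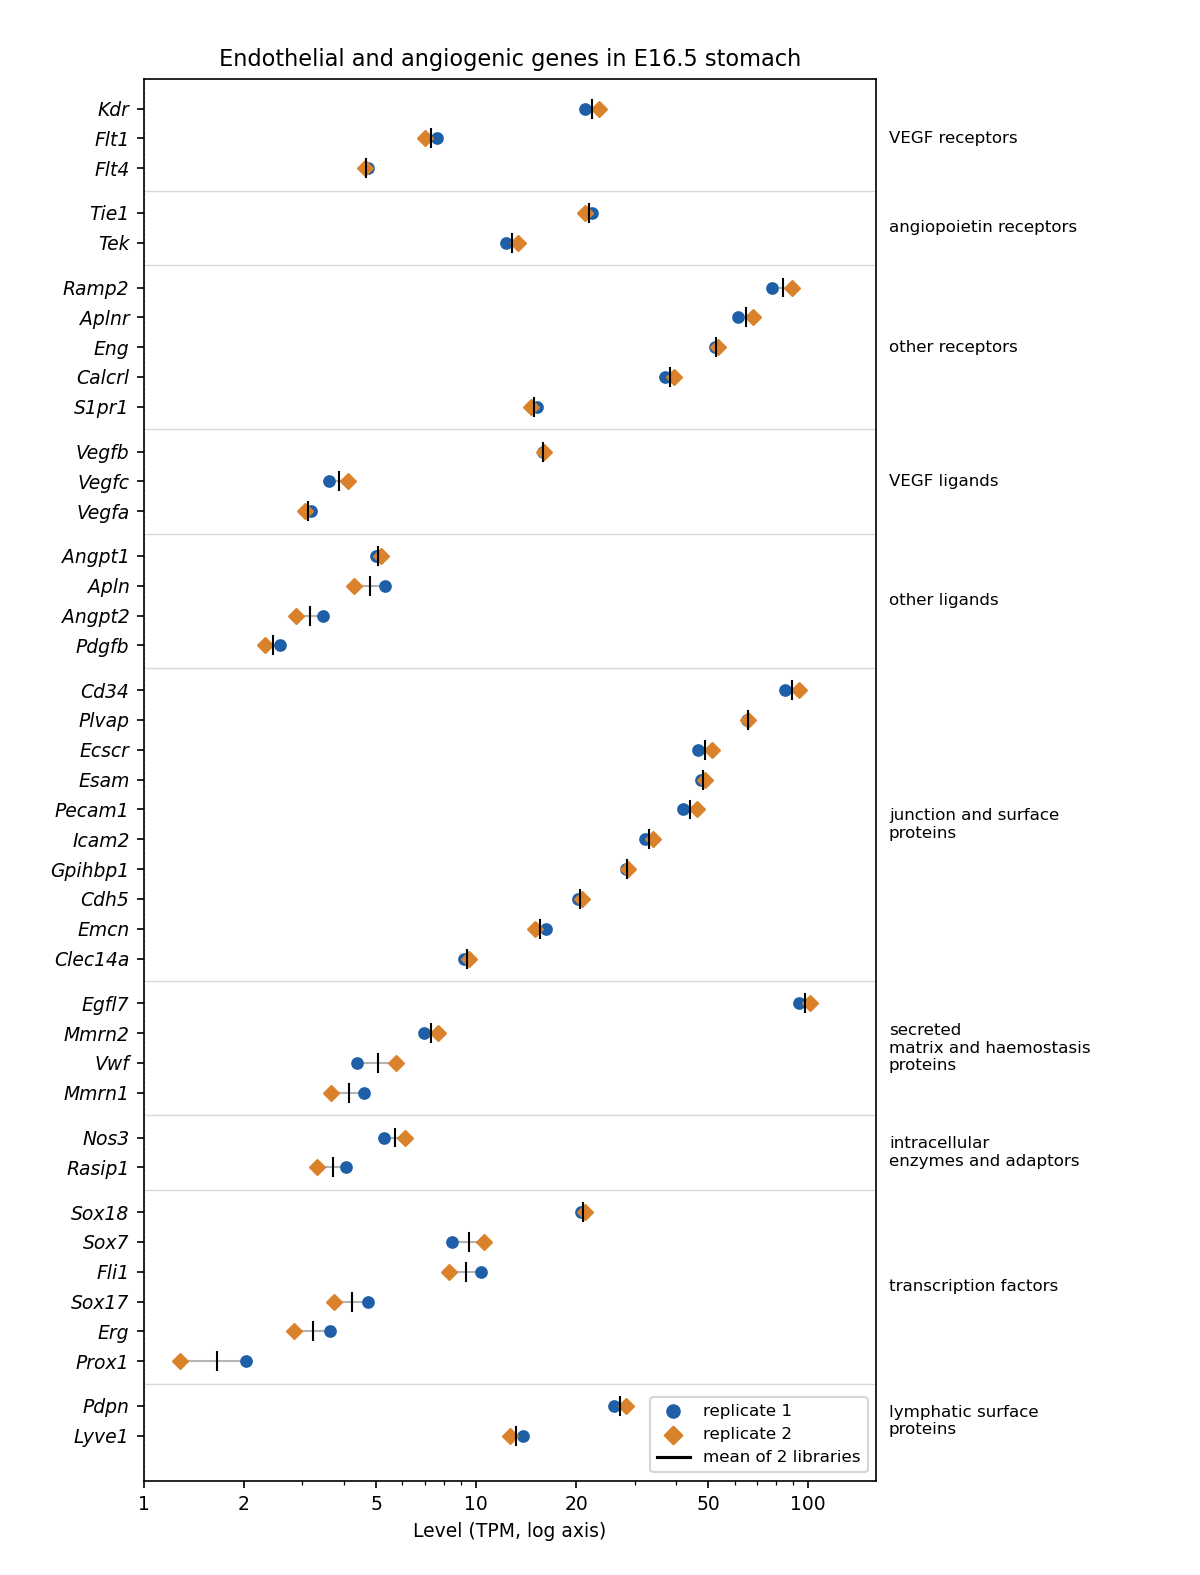
TPM (log axis) of the 41 genes in replicate 1 (circles) and replicate 2 (diamonds), with black ticks at the mean of the 2 libraries, grouped by role. Egfl7, Cd34 and Ramp2 lie at the right near 100 TPM, the ligands other than Vegfb and most transcription factors lie below 10 TPM, and the pools differ most for Prox1.

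Expected counts summed to 44567153 for replicate 1 and 25677702 for replicate 2, and the 41 genes drew between 89 and 6268 expected counts per library. Stomach marker genes were all present (9 of 9 at 1 TPM or more), and their summed level was 8106 TPM in replicate 1 and 13193 TPM in replicate 2. All 10 skeletal muscle genes were also detected, with summed levels of 2270 TPM in replicate 1 and 184 TPM in replicate 2 and a median log2 ratio of 4.52. The summed skeletal muscle level thus differed far more between the pools than any of the 41 genes did. Pancreas genes (7 of 7 detected, 10447 and 11514 TPM) and liver genes (7 of 7, 1347 and 1072 TPM) were present in both libraries. The vessels of these neighbouring tissues cannot be told apart from those of the stomach wall.

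The VEGF receptors differed from each other by more than the pools did. Kdr (VEGFR2, the main signalling receptor of blood endothelium; chromosome 5, 75932827 to 75978458) stood at 21.25 TPM in replicate 1 against 23.47 in replicate 2. Flt1 (VEGFR1, which binds VEGF with high affinity and restrains signalling) stood at 7.63 and 7.02 TPM. Flt4 (VEGFR3, the receptor for VEGF-C in lymphatic and sprouting endothelium) stood at 4.72 and 4.63 TPM. The order Kdr, Flt1, Flt4 therefore held in both libraries with no overlap for the whole genes. The receptor form Flt1-202 alone stood at 4.34 and 3.94 TPM, below Flt4-201 at 4.65 and 4.5 TPM. On the log2(TPM + 0.1) scale, Kdr exceeded Flt1 by 1.596 ± 0.185, a 3.02-fold difference in level, and Flt4 by 2.23 ± 0.12, a 4.70-fold difference (mean ± SD over the 2 libraries, as for every within-library difference below).

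Of the angiopoietin receptors, Tie1, the orphan partner, stood at 22.33 and 21.28 TPM in replicates 1 and 2. Tek, which encodes the angiopoietin receptor Tie2, stood at 12.33 and 13.36 TPM. Tie1 was the higher in each library, by 0.76 ± 0.13 on the log2(TPM + 0.1) scale.

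Of the 5 other receptor genes, Ramp2, Aplnr and Eng lay above 50 TPM in both libraries and S1pr1 near the middle of the set. Ramp2, the accessory protein that makes the calcitonin receptor-like receptor a receptor for adrenomedullin, stood at 78.03 TPM in replicate 1 against 89.45 in replicate 2. Calcrl, the receptor itself, stood at 37.1 and 39.36 TPM, so that Ramp2 exceeded it by 1.13 ± 0.08 (log2). Both levels include models with no coding sequence. Coding models carried 54.8% and 49.5% of Ramp2 and 68.8% and 68.9% of Calcrl, and the difference between coding models alone was not computed. The Ramp2 value is uncertain, because 33.4% of its exon bases also lie in exons of Vps25 on the same strand, a gene at 107.92 and 117.87 TPM.

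Aplnr, the apelin receptor of venous and sprouting endothelium (chromosome 2), stood at 61.26 and 68.42 TPM in replicates 1 and 2. Eng, the endoglin co-receptor for BMP9 and BMP10, stood at 52.31 and 53.42 TPM. S1pr1, the sphingosine-1-phosphate receptor that stabilises vessels, was lower in both libraries at 15.3 and 14.62 TPM. All 3 kept their order in the 2 pools.

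Of the 7 ligand genes in the set, all but Vegfb stood below 10 TPM. Vegfb, whose product binds Flt1, was the highest ligand at 15.94 TPM in replicate 1 against 15.97 in replicate 2. Vegfa, the main angiogenic factor, stood at 3.19 and 3.05 TPM, and lay below Vegfb by 2.32 ± 0.05 on the log2 scale. Vegfc, the lymphangiogenic ligand, stood at 3.6 and 4.12 TPM. Vegfa lay below Vegfc by TPM in both libraries, but by only 0.30 ± 0.18 in log2 units. By posterior mean TPM, the authors' Bayesian estimate, Vegfa stood at 3.68 and 3.85 and Vegfc at 3.55 and 4.02. Their order differed between the pools by that estimate and was not resolved.

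Angpt1, the Tie2 agonist supplied by mural and stromal cells, stood at 4.98 and 5.17 TPM. Angpt2, the context-dependent antagonist made by activated endothelium, stood at 3.47 and 2.87 TPM, below Angpt1 in each library by 0.67 ± 0.23 (log2). Apln, the apelin gene of sprouting tip cells, stood at 5.3 and 4.3 TPM. Its receptor Aplnr exceeded it by 3.73 ± 0.32 in log2 units, a 13.3-fold difference in level. Pdgfb, the endothelial signal that recruits pericytes, was at 2.57 and 2.31 TPM, the lowest ligand in both libraries.

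Junction and surface genes formed the largest class, with 10 of the 41 members. Cd34, a sialomucin of endothelium, progenitor cells and some stromal cells (chromosome 1), stood at 85.18 TPM in replicate 1 against 93.52 in replicate 2. Plvap, the protein of fenestral and caveolar diaphragms, stood at 65.38 and 65.96 TPM. Ecscr, which encodes an endothelial chemotaxis receptor, stood at 46.56 and 51.47 TPM. These 3 genes lay above the other 7 by their means, although Esam, a tight-junction protein gene at 47.46 and 48.83 TPM, overlapped Ecscr.

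Pecam1, the adhesion molecule of endothelial borders, platelets and leukocytes, stood at 41.88 and 46.12 TPM. Cdh5, which encodes the adherens-junction protein VE-cadherin, stood at 20.33 and 20.79 TPM. Pecam1 exceeded Cdh5 by 1.09 ± 0.08 in log2 units. Icam2, a leukocyte ligand, stood at 32.24 and 34.07 TPM, and Gpihbp1, which carries lipoprotein lipase across capillary endothelium, at 28.19 and 28.6 TPM. Emcn, the endomucin gene of capillaries and veins, stood at 16.2 and 15.02 TPM, and Clec14a, a C-type lectin of endothelium, at 9.22 and 9.5 TPM. Each of these 6 genes differed between the pools by less than 25%.

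Among secreted proteins, 1 gene stood far above the rest. Egfl7, an endothelial matrix protein gene on chromosome 2 and the highest of the 41, stood at 93.89 TPM in replicate 1 against 101.07 in replicate 2. It exceeded Pecam1 by 1.15 ± 0.02 (log2). Intron 7 of Egfl7-202 holds the hairpin of the endothelial microRNA miR-126, whose mature strand is given with its seed, bases 2 to 8, in capitals (RefSeq, GRCm38.p6, chromosome 2, 26591402 to 26591423, plus strand).
mmu-miR-126a-3p: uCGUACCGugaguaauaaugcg
The hairpin gene Mir126a was listed at 0 in both libraries, which were made from RNA longer than 200 nt, so the level of the microRNA was not measured. Mmrn2, which encodes an endothelial matrix protein that binds Clec14a, stood at 6.96 and 7.67 TPM. Vwf, the gene of the clotting factor stored in endothelium and megakaryocytes, stood at 4.39 and 5.72 TPM, and Mmrn1, expressed by platelets and by lymphatic endothelium, at 4.61 and 3.65 TPM. Vwf was higher and Mmrn1 lower in replicate 2, so their order by TPM differed between the pools. By posterior mean TPM, Vwf lay above Mmrn1 in both libraries, at 5.06 and 6.52 against 4.55 and 3.58. The change of order was therefore not resolved.

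Of the intracellular proteins, Nos3, the endothelial nitric oxide synthase gene, stood at 5.29 TPM in replicate 1 against 6.1 in replicate 2. Rasip1, a Ras-interacting protein required for vessel lumens, stood at 4.07 and 3.32 TPM. Exons of Nos3 overlap Gm15587 on the other strand over 25.2% of their bases and exons of Rasip1 overlap Izumo1 on the same strand over 20.4%, with both partners at or below 0.2 TPM. Nos3 also overlaps Atg9b on the opposite strand over 7.12% of its exon bases, and Atg9b stood at 3.43 and 4.98 TPM, so the Nos3 value is uncertain. In all, 10 of the 41 genes share exon bases with another gene, 9 of them with a gene on the opposite strand, and without a stated strand setting such reads may be assigned to either gene.

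The transcription factors ranged over more than 10-fold. Sox18, a SOXF factor of vessels and of lymphatic specification, led with 20.65 TPM in replicate 1 against 21.34 in replicate 2. Its relative Sox7 stood at 8.48 and 10.53 TPM, and Sox17, the arterial member of the family, at 4.73 and 3.74 TPM. The order Sox18, Sox7, Sox17 was the same in both pools: Sox17 lay below Sox18 by 2.29 ± 0.27 and below Sox7 by 1.15 ± 0.45 in log2 units.

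Of the 2 ETS factors, Fli1, shared by endothelium, megakaryocytes and other blood cells, stood at 10.36 and 8.27 TPM. Erg, more restricted to endothelium, stood at 3.64 and 2.83 TPM. Both were higher in replicate 1, and Fli1 exceeded Erg by 1.499 ± 0.0216 log2 units. Erg rests on 225 and 89 expected counts, so this small SD of 2 values does not show a constant difference. Prox1, the lymphatic master regulator, was the lowest of the 41 at 2.03 and 1.28 TPM.

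The lymphatic genes lay well above their transcription factor. Lyve1, the hyaluronan receptor of lymphatic endothelium and of some macrophages, stood at 13.82 TPM in replicate 1 against 12.64 in replicate 2. Pdpn, the podoplanin gene of lymphatic endothelium, mesothelium and some stromal and epithelial cells, stood at 26.07 and 28.28 TPM. Lyve1 exceeded Prox1 by 2.96 ± 0.35 and Pdpn exceeded Lyve1 by 1.03 ± 0.17 in log2 units. Macrophage markers were present in both libraries (12 of 12 at 1 TPM or more, summed level 522 and 420 TPM). Mesothelial markers were present too (9 of 9 matched genes, 1288 and 1674 TPM, median 44.8 ± 4.94 TPM). Most of the mesothelial sum came from Krt19, at 927 and 1272 TPM, which is also on the epithelial list. Among the others, Msln stood at 47.55 and 67.49 TPM and Wt1 at 14.81 and 11.09 TPM. The part of macrophages and mesothelium in the Lyve1 and Pdpn levels was not tested. With Flt4, Vegfc, Mmrn1, Prox1 and Sox18 added, 7 lymphatic-associated genes had a median of 4.68 ± 0.0636 TPM.

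In the order of mean levels, 22 of the 40 pairs of neighbouring genes differed by more than the SD of their difference and 18 did not. Egfl7, Cd34 and Ramp2 followed each other beyond that SD. Plvap and Aplnr did not differ beyond it, nor did Ecscr and Esam, or Kdr and Tie1. At the low end no neighbouring pair from Angpt1 through Vwf, Apln and Flt4 to Sox17 differed beyond that SD, although Angpt1 stood above Flt4 in both libraries. All 16 differences chosen between receptors, ligands and factors kept their sign on TPM in both libraries and exceeded their SD. These pairs were chosen with earlier results of these data known, and with n = 2 this is a description and not a test.

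The pools differed little over these genes. On TMM-scaled counts, the log2 ratio of replicate 1 over replicate 2 had a median of -0.01 over the 41 genes, all of which passed the low-count filter, and of 0.00 over the 17763 genes that passed it. Replicate 1 was the higher for 20 of the 41 genes and the lower for 21, and 50.4% of all genes past the filter were higher in replicate 1. None of the 41 lay beyond 1.5-fold, where 9.28% of all genes past the filter did, 4.13% with the higher level in replicate 1 and 5.15% with it in replicate 2. Among the 15203 of these that were detected at 1 TPM or more in both libraries, as all 41 were, the share was 5.89%. The median size of the log2 ratio was 0.105 over the 41 genes, 0.122 over those detected genes and 0.139 over all genes past the filter.

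**Figure D2:**
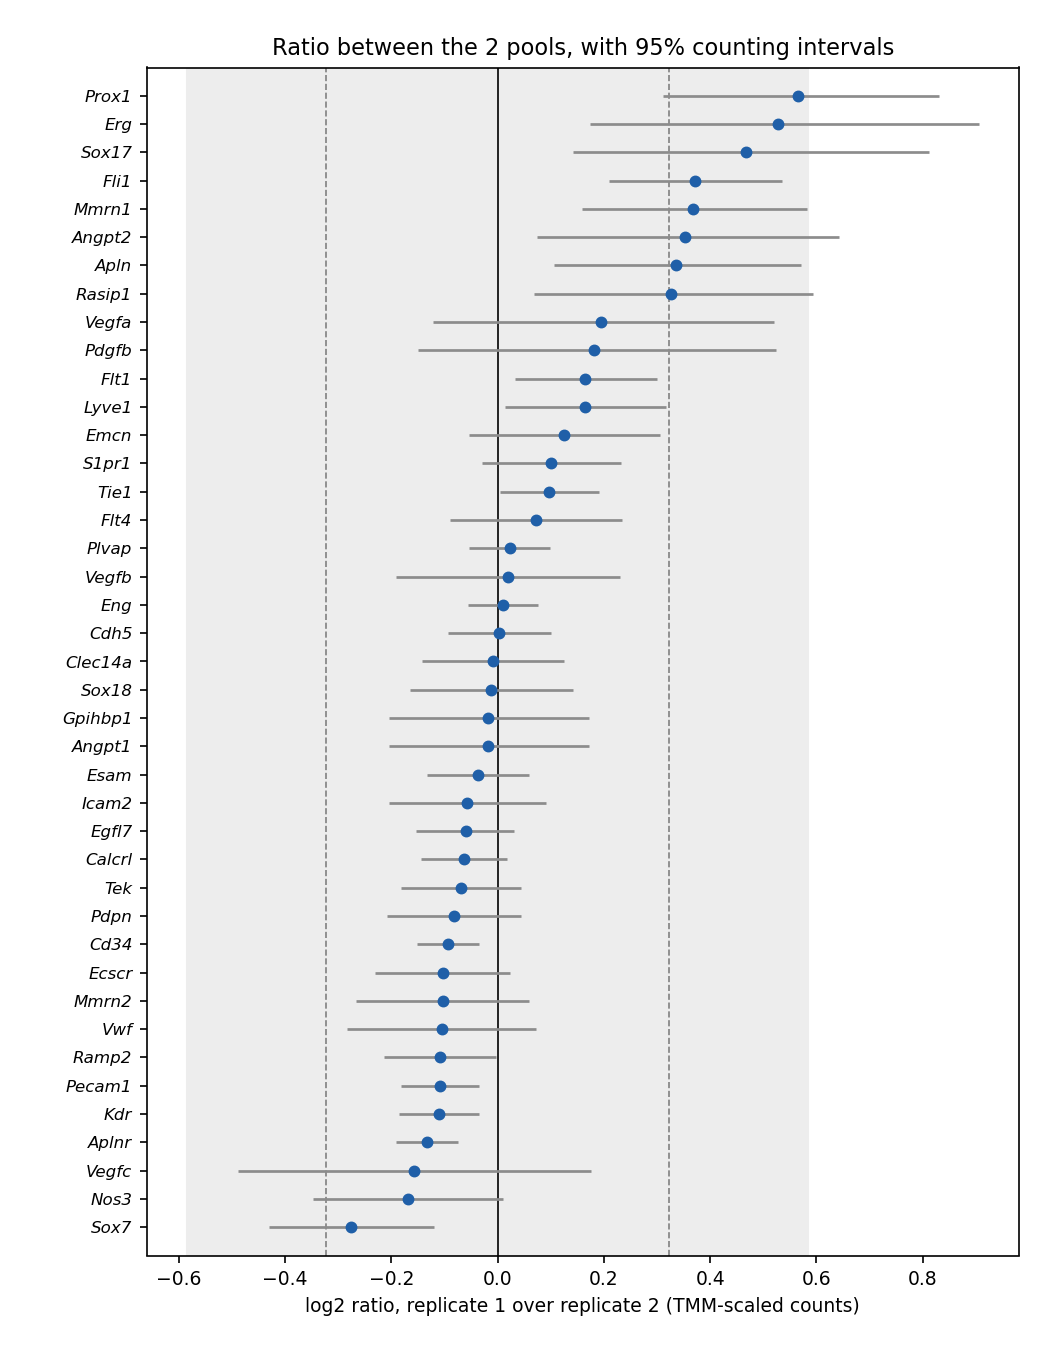
log2 ratio of replicate 1 over replicate 2 on TMM-scaled counts for the 41 genes (points), with 95% exact binomial intervals that cover counting error only (bars). The shaded band marks 1.5-fold and the dashed lines a 25% higher level in either library; all points lie within the band, and 8 lie right of the upper dashed line.

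At a looser limit of a 25% higher level, 8 genes stood out, all higher in replicate 1. Of all genes past the filter, 10.9% were higher by as much in replicate 1 and 10.8% in replicate 2. Prox1 had the highest log2 ratio, 0.56 with a 95% counting interval of 0.31 to 0.83 on 445 and 172 expected counts. Erg followed at 0.53 (0.17 to 0.91) and Sox17 at 0.47 (0.14 to 0.81). The other 5 were Fli1 and Mmrn1, both at 0.37, Angpt2 at 0.35, Apln at 0.34 and Rasip1 at 0.33. At the other end Sox7 stood at -0.27 (-0.43 to -0.12), within that limit. The intervals are exact binomial, cover counting error only and treat amplified reads as independent. Of the 41, 11 lay wholly above 0 and 6 wholly below. The same share over all genes was not computed, so these counts do not set the 41 genes apart.

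By role, the transcription factors had a median log2 ratio of 0.42, with 4 of 6 higher in replicate 1, and the 4 other ligands one of 0.26. Receptors and junction proteins had medians between -0.06 and 0.07. All 8 genes past the 25% limit belonged to the 19 members with a mean below 10 TPM, whose median ratio was 0.18, and none to the 22 above it, whose median was -0.05. Over detected genes the corresponding medians were 0.03 and -0.01. The shares of detected genes past the 25% limit below and above 10 TPM were not computed, so this split does not set the members apart.

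Markers of other tissues differed between the pools in both directions. Beside skeletal muscle, all 7 pan-leukocyte genes were higher in replicate 1, with a median log2 ratio of 0.43 and summed levels of 137 and 113 TPM. All 7 liver genes (median 0.32) and all 6 spleen mesenchyme genes (median 0.54, summed levels 225 and 207 TPM) were also higher there. Stomach genes (2 of 9 higher in replicate 1, median -0.64), epithelial genes (0 of 8, median -0.32) and smooth muscle genes (1 of 8, median -0.21) went mostly the other way. Fli1 is also expressed by blood cells, and Prox1 by hepatocytes and some muscle cells; the part of these tissues in the 8 ratios was not tested. Megakaryocyte genes, relevant to Vwf, Mmrn1 and Fli1, were detected for 3 of 10, with Pf4 highest at 71.92 and 58.98 TPM, Itga2b at 6.97 and 9.02, Ppbp at 3.52 and 2.73, and Gp6 at 0.06 and 0.22 and Gp1ba at 0.15 and 0.13 TPM lowest; none was at 0 in both libraries. Scaling by the spike-in RNAs shifted the median gene by -0.57 in log2 units and put all 41 genes below 0, from -0.85 to -0.01, so the direction of all 20 ratios above 0 turns with that scaling. The pan-leukocyte, liver and spleen mesenchyme medians turned too, to -0.14, -0.26 and -0.04. With it, 21 of the 41 lay beyond 1.5-fold, all higher in replicate 2, where 47.4% of all genes past the filter did. With unscaled TPM, 1 gene (Prox1) was more than 1.5-fold higher in replicate 1, where 3.56% of all genes were.

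**Figure D3:**
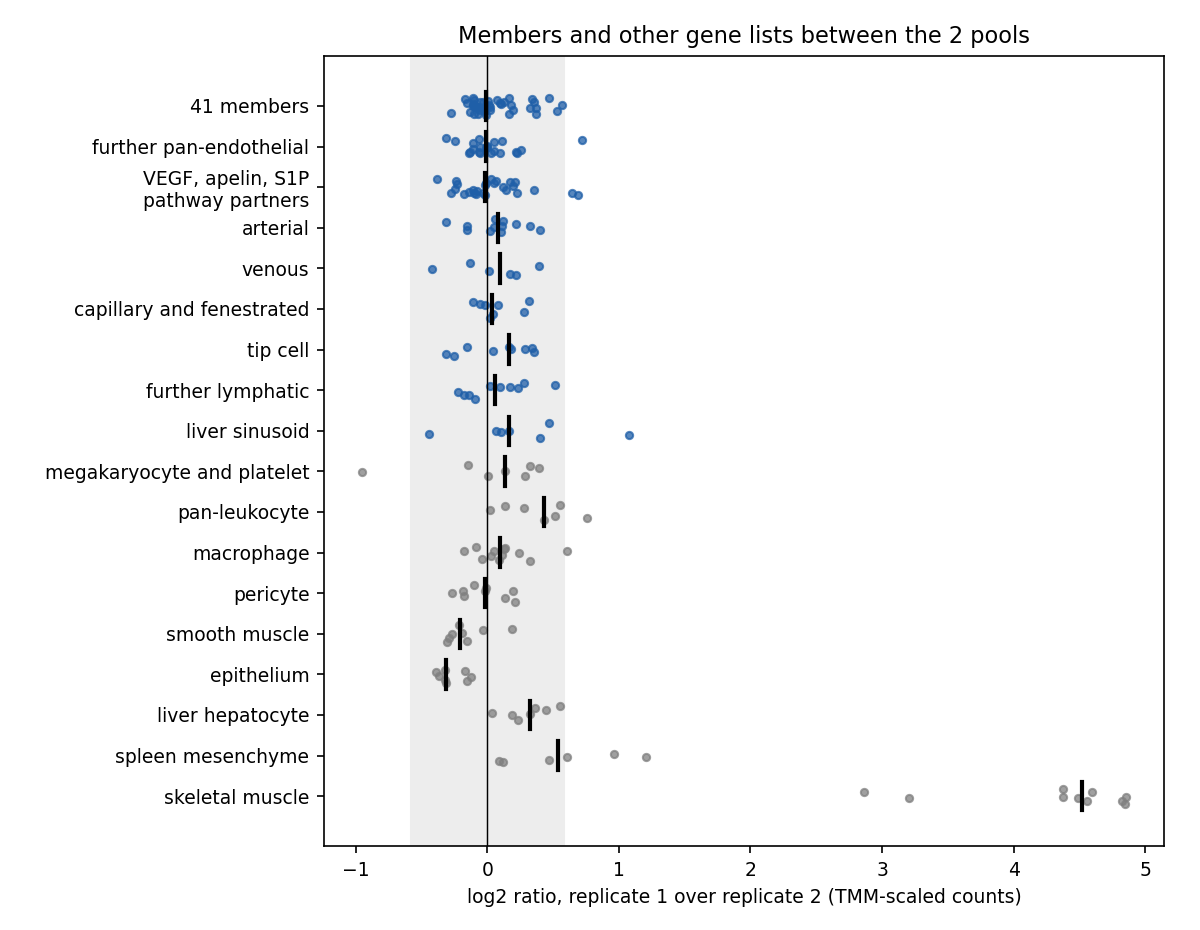
log2 ratio of replicate 1 over replicate 2 on TMM-scaled counts for each gene (points) of the 41-gene set and of 17 other gene lists, endothelial and pathway lists in blue and other cell types in grey, with black bars at the medians and the 1.5-fold band shaded. The endothelial medians lie between -0.02 and 0.17, the pan-leukocyte, liver and spleen mesenchyme medians between 0.32 and 0.54, and skeletal muscle at 4.52.

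Other endothelial genes gave a similar picture. Of 22 further pan-endothelial genes, 21 were detected, with a median of 9.42 ± 0.205 TPM and a median log2 ratio of -0.01. The highest were Cav1 (351 and 398 TPM), the caveolin gene shared with muscle and stroma, the ETS factor gene Ets2 (48.35 and 54.28) and Stab1 (34.97 and 31.64), a scavenger receptor gene shared with macrophages. Tal1, the factor of early endothelium and blood, was the lowest at 0.91 and 0.5 TPM. None of these lists was set against the 41 genes by a test.

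Among 28 genes acting in the same pathways as the members, 26 were detected, with a median of 9.21 ± 0.711 TPM and a median log2 ratio of -0.02. Arnt and Hif1a, subunits of the hypoxia-inducible factor that drives Vegfa, stood at 37.62 and 40.07 TPM and at 39.82 and 35.97 TPM. Nrp1, the neuropilin co-receptor of Kdr, stood at 36.59 and 36.29 TPM, and Nrp2, the co-receptor of Flt4, at 24.23 and 22.37 TPM. Both neuropilin genes stood above their partner receptor in both libraries.

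The partner ligands lay below 13 TPM. Pgf, which binds Flt1, stood at 11.49 and 12.45 TPM and Vegfd, which binds Flt4, at 8.02 and 6.96 TPM, and each lay above the receptor named in both libraries. Adm, the adrenomedullin gene, stood at 3.3 and 3.88 TPM, below both subunits of its receptor. The endoglin ligands Gdf2 (0.38 and 0.42 TPM) and Bmp10 (0 counts in both, which allows up to 3 counts per library) did not reach 1 TPM, although their receptor Acvrl1 stood at 28.2 and 32.94 TPM. Apela, the second ligand of Aplnr, stood at 2.59 and 1.61 TPM.

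Receptors, carriers and processing factors completed the pathways. Pdgfrb, the pericyte receptor for Pdgfb, stood at 33.6 and 34.68 TPM, more than 10 times the level of its ligand. Pericyte markers as a whole were detected for 9 of 9, with a median of 16.4 ± 1.63 TPM and a median log2 ratio of -0.02. Lpl, the lipase that Gpihbp1 carries, stood at 21.1 and 13.81 TPM, with a log2 ratio of 0.64. For lymphatic VEGF-C processing, Ccbe1 stood at 2.75 and 2.11 TPM and Adamts3 at 1.82 and 2.26 TPM.

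Genes used as markers of vessel types were detected for most of each list. The arterial list had 10 of 12 genes at 1 TPM or more and a median of 8.31 ± 0.187 TPM, led by Cxcl12 (145 and 141 TPM), which stromal cells also express, Gja4 (13.04 and 14.91) and Notch1 (11.4 and 12.89), with Sema3g lowest at 0.73 and 0.56. The venous list had 6 of 7 and a median of 23.3 ± 1.32, led by Aplnr, the orphan nuclear receptor gene Nr2f2 (33.31 and 30.16) and Ephb4 (25.67 and 26.28). Its lowest gene was Selp, the P-selectin gene, at 0.21 and 0.24 TPM. These list medians rest on different genes, several of which stromal cells share, so they do not rank vessel types.

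The capillary and fenestrated list had 8 of 9 genes detected and a median of 35.6 ± 1.22 TPM, led by Plvap, Fabp4 (65.09 and 53.64 TPM) and Rgcc (45.59 and 48.52). Car4, a marker of some capillary beds, was the lowest at 0.28 and 0.4 TPM. The tip cell list had 9 of 9 detected at a median of 4.8 ± 0.707, from the basement-membrane gene Nid2 (68.84 and 68.7 TPM), Kcne3 (11.2 and 13.3) and the Notch ligand gene Dll4 (5.52 and 6.9) to Esm1 (2.49 and 2.27 TPM). Its median log2 ratio was 0.17, and Apln, Angpt2 and Pdgfb belong to both this list and the 41 genes.

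Of 12 further lymphatic genes, 9 were detected, with a median of 5.35 ± 0.354 TPM and a median log2 ratio of 0.06. Pard6g, a polarity gene that other cells express, led at 38.34 and 41.94 TPM. Ccl21a, the chemokine of lymphatic endothelium, stood at 34.87 and 30.46 TPM, though near-identical copies of this gene share its reads. Foxc2, the factor of lymphatic valves, was the lowest at 0.1 and 0.11 TPM. Of 8 liver sinusoid genes, 7 were detected at a median of 3.10 ± 0.594 TPM, led by Gata4 (24.64 and 19.41 TPM), which stomach epithelium also expresses, Lyve1 and Fcna (4.32 and 4.11). Stab2, a scavenger receptor of sinusoids and named here after its values were seen, stood at 5.05 TPM in replicate 1 against 1.83 in replicate 2, and Clec4g was the lowest at 0.37 and 0.15 TPM.

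More than 1 transcript was listed for 28 of the 41 genes, counting models at 0 TPM in both libraries such as Nos3-202. The same transcript led in both libraries for 27 of the 28, for 26 also by posterior mean TPM. The same share over all genes was not computed, so these counts do not set the 41 genes apart. The estimates split reads among overlapping models and carry that uncertainty beside the replicate error. For Vegfa, the coding models without exons 6 and 7 carried 75.8% of the gene's TPM in replicate 1 and 80.9% in replicate 2. The model with exon 7 only, Vegfa-202, carried 11.3% and 0%, and those with exon 6 were listed at 0 in both. These shares rest on 246 and 123 expected counts for the whole gene. By the authors' posterior mean TPM, which does not push weak models to 0, the same 3 classes held 64.3% and 56.8%, 9.54% and 5.21%, and 6.27% and 9.64%. The form without exons 6 and 7 led by either estimate, while the order of the others changed.

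**Figure D4:**
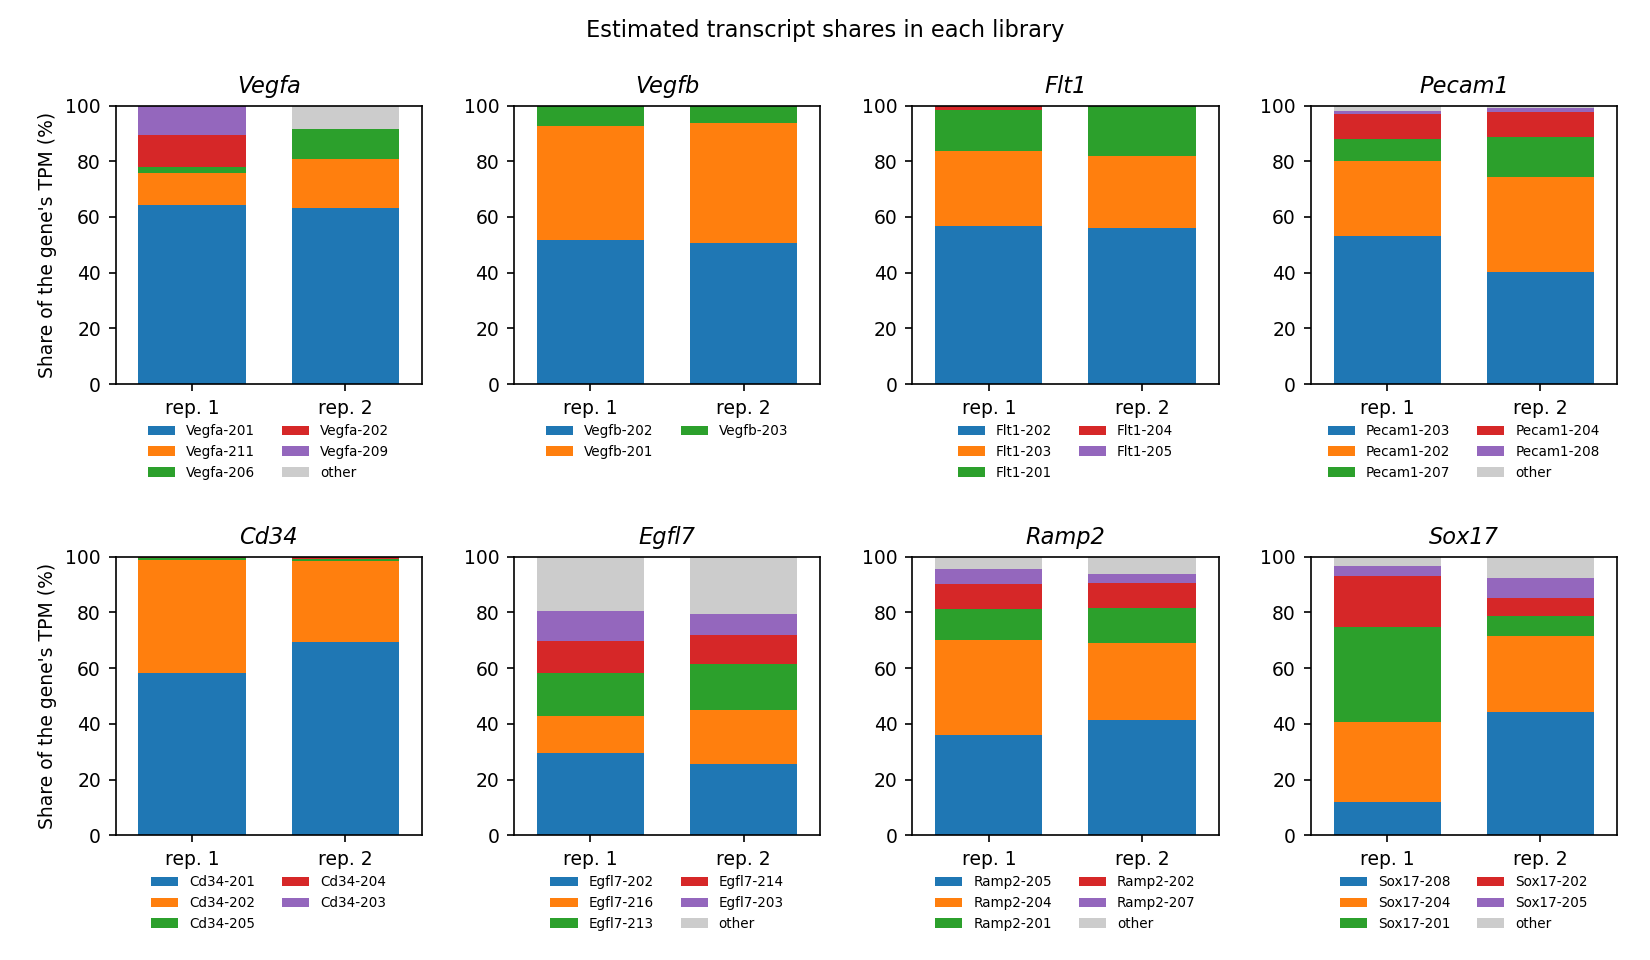
Share of each gene's TPM carried by its transcripts (stacked bars, in %) in each library for 8 genes with alternative forms, the 5 highest transcripts coloured and the rest in grey. The leading transcripts of Flt1 and Vegfb have similar shares in the 2 libraries, Cd34 and Pecam1 differ by more than 11 percentage points, and the leading transcript of Sox17 changes.

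Of Vegfb, Vegfb-202, whose coding length of 564 bases matches the heparin-binding form, carried 51.7% and 50.6%, and Vegfb-201, with 621 coding bases as in the freely diffusing form, carried 41.0% and 43.2%. The receptor form Flt1-202 carried 56.9% and 56.1% of Flt1, and the soluble form Flt1-203 carried 26.7% and 25.8%. The share of each of these 4 transcripts differed between the pools by less than 3 percentage points. A further Flt1 model with no coding sequence, Flt1-201, carried 14.7% and 18.1%. Soluble Flt1 thus stood at 2.04 and 1.81 TPM, against 4.34 and 3.94 TPM for the receptor form.

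The tail forms of Pecam1 and Cd34 differed more between the pools. Pecam1 models that skip the 57-base exon carried 53.0% in replicate 1 and 40.4% in replicate 2, while those that hold it carried 44.1% and 57.5%, so the larger class changed. Cd34-201, with the long tail, carried 58.1% and 69.5%, and Cd34-202, with the short tail, 40.6% and 29.0%. Posterior mean TPM gave the same order in each library for both genes. For Sox17 the leading transcript was Sox17-201 in replicate 1 and Sox17-208 in replicate 2, whose share was 12.03% and 44.4%, on 259 and 106.5 expected counts for the gene.

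Not every abundant model encodes protein. Ramp2-205, a model with no coding sequence, led Ramp2 with 36.0% and 41.4%, and coding models carried 54.8% and 49.5% of the gene. Calcrl-203, also without coding sequence, carried 31.2% and 31.1% of Calcrl, on 142 and 84 expected counts. In Egfl7 the coding models carried 64.7% and 65.5%, and those with the full 834-base frame 45.1% and 47.5%. The most abundant Vwf transcript carried 51.1% and 41.1% by the main estimate but 21.01% by posterior mean TPM, so the form of Vwf was not resolved. Kdr-201, Flt4-201 and Pdpn-201, in contrast, each carried 97.2% or more of their gene in both libraries.

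The 41 genes are spread over the genome, with 5 on chromosome 2, 4 each on chromosomes 8 and 11 and 1 on the X chromosome. Promoter windows of 300 bases around the annotated start were at hand for 20 of the 41 genes (26 windows; RefSeq, GRCm38.p6) and were searched on both strands. The ETS core AGGAAG stood in 42.3% of these windows and 35.4% of all 32851 promoters, the SOX motif AACAAT in 19.2% and 10.7%, the GATA motif AGATAA in 11.5% and 11.2%, and the KLF motif CCACCC in 50% and 31.5%. The longer ETS motif CCGGAAG, which has the core GGAAG in common with the first, was in 0% of the 26 windows and 8.86% of all. These shares describe letters in a short window, were not tested and do not show binding.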

How the data were processed

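Per the labels, RNA over 200 nt was extracted with mirVana from pooled stomachs and 10 ng entered each library, with ERCC spike-ins; a SMARTer Ultra Low kit manual is listed. Per the deposited text files, the assembly was mm10 with annotation M4. Aligner, quantifier and strand setting were not given in the sources used here. Deposited tables hold genes and transcripts of each library. Expected counts were estimated by the authors, with shared reads split among features. TPM was deposited by the authors as a length-corrected share that includes spike-ins (3.08% and 2.05% of counts), with posterior mean TPM as a Bayesian estimate beside it. FPKM was deposited by the authors and served as an alternative. Of 69691 rows, 43346 are Ensembl genes, of which 42462 had a symbol in GENCODE M21 (GRCm38); 96 are spike-ins, 26248 have numeric identifiers and 1 is phiX. Only genes entered library sizes.

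Expected counts were rounded, filtered with filterByExpr and scaled by TMM in edgeR 4.0.16 (factors 1.01 and 0.992), with a prior count of 2 in the log2 ratio; DESeq2 1.42.0 size factors were an alternative. With 1 group, no test could be run. The biological coefficient of variation of the pair was 17.4%. Differences between genes used log2(TPM + 0.1) within a library. Ratio computation was tested on simulated data. R was version 4.3.3 and Python 3.11.15, with matplotlib 3.10.9, scipy 1.17.1, pandas 2.3.3 and numpy 2.4.6. Every member is described; of other lists the highest 3 genes and the lowest are named where a list is described by its genes, together with partners of members. The members, lists and pairs were chosen with earlier results of these data known.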

Additional observations from a re-analysis of the deposited data

Results flagged for a closer look

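Rows whose identifier is only a number have no gene name and were left out of all comparisons here. Replicate 1 had 74.99 expected counts there and replicate 2 had 27, each past the limit of 3 set by a count of 0, and there were no control samples to set beside them. With 2 libraries, no group was large enough to look for a library that stands apart from the others.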

How the results depend on the processing

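Detection of all 41 genes held with a 0.5 TPM threshold, posterior mean TPM and either library alone. In both libraries, 28 reached 5 TPM, where 26.1% of all annotated genes did. The limit of 1 FPKM was reached by 40, and the share of all genes there was not computed. Their median level was 9.225 on the FPKM scale, a different unit, and 13.36 to 13.82 TPM with either library left out. The median log2 ratio was -0.59 with spike-in scaling. Of the 41 genes, 21 lay beyond 1.5-fold with spike-in scaling, all higher in replicate 2, where 47.4% of all genes did so. With unscaled TPM 1 did, Prox1, higher in replicate 1, where 3.56% of all genes were. At the 25% limit 8 differed, all higher in replicate 1. Of all genes past the filter, 10.9% were higher by as much in replicate 1 and 10.8% in replicate 2. DESeq2 size factors, a prior count of 0.5 and no low-count filter left none beyond 1.5-fold. Spike-in scaling uses the recovered spike-in share in place of the bulk of genes, and which scaling fits the amount of RNA per pool was not tested. Over the 16 differences between genes, 71 alternative values moved by less than the spread between libraries, 9 by more, and 0 changed sign. The posterior mean TPM values among these are means of the 2 libraries. For Vegfa and Vegfc, the sign by that estimate differed between the libraries. No paired analysis was possible because the labels give 1 group. With 2 libraries, an SD is itself imprecise, and the fewest expected counts behind a gene, 89 for Erg in replicate 2, limit its ratio most.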
